A study of Mus musculus with 5 samples.

Results

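The AP-1 family was followed in common lymphoid progenitors (CLPs), marrow cells at the start of the lymphocyte lineages. It was taken as 9 genes, chosen by name: Fos, Fosb, Fosl2, Jun, Junb, Jund, Atf3, Batf and Batf3, of 55487 gene identifiers in the table. All 9 were found by matching their symbols to mouse Ensembl identifiers. RNA was sequenced from CLPs sorted as lineage-negative, CD127-positive and Flt3-positive cells. The SF1 group (3 libraries) came from SclCre;JAK2-V617F mice, which carry the kinase mutant of myeloproliferative neoplasms, and the WT group (2 libraries) from wild-type mice. Both groups are labelled as 16 weeks after tamoxifen. SclCre places the recombinase under regulatory sequence of the stem cell gene Scl (Tal1). The labels give neither age nor sex, nor whether a library was 1 animal or a pool, so the p-values here rest on library-to-library spread, which may be technical.

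AP-1 is a set of basic leucine zipper transcription factors that bind DNA in pairs. Jun proteins pair with each other or with Fos proteins, and Fos proteins, which do not pair with themselves, depend on a Jun partner to bind. Fos, Fosb, Jun, Junb and Atf3 are immediate early genes, switched on within minutes of growth factor, cytokine or stress signals, while Jund is made more steadily. Batf and Batf3 lack the activation domains of Fos and Jun. They join Jun proteins and the interferon regulatory factors IRF4 and IRF8 on DNA in lymphocytes and dendritic cells.

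Total counts were between 8894288 and 20424296 per library, with WT replicate 1 the deepest. The sort genes Flt3 and Il7r were present in every library, at 1511 to 1700.0 and 331 to 465 CPM (counts scaled to a common library total with the TMM factors of edgeR). Of the 9 genes of lineages that the sort removes, Cd3e was at 0 in all SF1 libraries and at no more than 0.114 CPM in WT, and Ms4a1 was at no more than 0.438 CPM in any library. These 2 do not stand for the whole list: Itgam, given below, was between 7.65 and 21.9 CPM. SF1 replicate 3 stood apart in myeloid RNA: of 18 neutrophil and monocyte markers tested, 17 were highest in that library.

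Fos, Fosb, Junb and Batf were higher in SF1 CLPs than in WT CLPs, and Jun, Jund and Fosl2 did not pass the test. Of the 9 members, 7 passed the filter on low counts, and 4 of these were called higher and 0 lower (edgeR, quasi-likelihood test, p-values adjusted over 14423 genes after Benjamini and Hochberg). Among all genes tested, 6.77% were called higher and 9.74% lower in SF1. The median log2 fold change of the 7 was 0.79, against 0.02 for all genes tested. In 5 of the 7 every SF1 library lay above both WT libraries and in 0 every SF1 library lay below, where 24.8% and 24.2% of all genes tested did so. The number of members called was 1, Junb, without WT replicate 1.

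**Figure D1:**
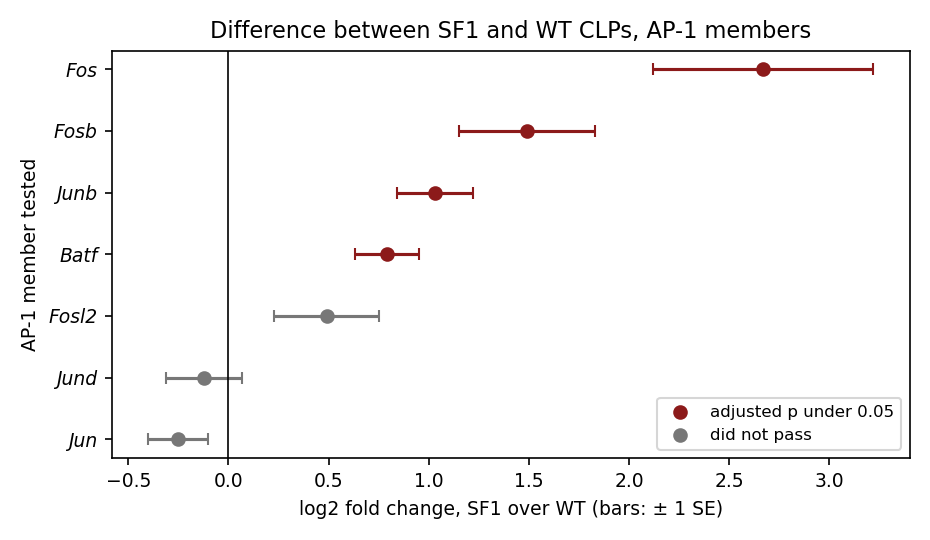
Log2 fold change of the 7 tested AP-1 members (horizontal axis, SF1 over WT, bars are 1 standard error either side, 3 SF1 and 2 WT libraries). Fos lies farthest right at 2.67, followed by Fosb at 1.49, Junb at 1.03 and Batf at 0.79; the grey points of Fosl2, Jund and Jun did not pass.

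The promoters of the 4 called members are shown because these genes moved in 1 direction, with that of Jun beside them as a member that did not pass. The sequences are RefSeq's (GRCm38.p6), 5′ to 3′ on the strand of the gene, from 250 bases before the RefSeq start and ending before the first annotated base. Capitals mark TGACG, the core of the cyclic AMP response element, on either strand. This motif was chosen after the sequences were seen.
Fos (chr12:85473640-85473889, plus strand): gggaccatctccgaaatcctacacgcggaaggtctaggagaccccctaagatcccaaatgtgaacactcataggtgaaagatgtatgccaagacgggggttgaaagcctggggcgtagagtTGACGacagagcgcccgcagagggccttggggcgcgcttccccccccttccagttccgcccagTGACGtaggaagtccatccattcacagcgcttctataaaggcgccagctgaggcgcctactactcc
Fosb (chr7:19310052-19310295, minus strand): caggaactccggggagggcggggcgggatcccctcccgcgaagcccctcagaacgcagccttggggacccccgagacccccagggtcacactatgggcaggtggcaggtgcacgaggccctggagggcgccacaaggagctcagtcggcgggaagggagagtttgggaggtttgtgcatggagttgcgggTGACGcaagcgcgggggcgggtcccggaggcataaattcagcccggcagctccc
Junb (chr8:84978749-84978998, minus strand): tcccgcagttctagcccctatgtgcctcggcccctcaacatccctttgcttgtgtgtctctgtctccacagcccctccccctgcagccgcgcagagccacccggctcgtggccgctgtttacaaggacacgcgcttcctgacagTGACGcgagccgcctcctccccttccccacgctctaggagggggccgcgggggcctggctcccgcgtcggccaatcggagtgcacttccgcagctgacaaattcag
Batf (chr12:85686470-85686668, plus strand): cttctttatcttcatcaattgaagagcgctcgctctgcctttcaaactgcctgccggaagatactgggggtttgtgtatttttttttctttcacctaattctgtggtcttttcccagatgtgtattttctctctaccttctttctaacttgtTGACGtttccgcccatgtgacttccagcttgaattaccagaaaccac
Jun (chr4:95052223-95052472, minus strand): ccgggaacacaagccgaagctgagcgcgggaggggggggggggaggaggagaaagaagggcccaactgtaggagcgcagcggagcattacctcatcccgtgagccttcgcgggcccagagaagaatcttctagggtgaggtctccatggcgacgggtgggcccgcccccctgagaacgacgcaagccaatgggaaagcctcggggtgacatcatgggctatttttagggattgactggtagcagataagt
The 300-base window (250 before to 50 after the start) held TGACG in all 4 called members and in Atf3, 5 of the 9, and in 20.8% of 32851 windows of all genes. Because the motif was picked from these sequences, the 5 of 9 cannot be read as an excess over that share. Fos had it at 2 places, 129 and 66 bases before the start. The other 4 motifs were searched on both strands in all 9 windows. TGANTCA, the AP-1 site itself, was in 0 of 9 and in 7.81% of all windows, and the full element TGACGTCA in 0 of 9 and 1.79%. The serum response factor CArG box was in 0 of 9 and 1.63%, and the STAT motif TTCNNNGAA was in 1 of 9 (Batf3) and 8.30%. A TGACG match is part of any TGACGTCA match. Only exact matches within these 300 bases were sought, so sites farther from the start or with other letters would be missed. A count of 0 therefore does not show that a promoter lacks such a site. For Fosl2, Batf3, Jund and Atf3 the RefSeq start lies 671, 567, 1210 and 34706 bases from the GENCODE gene start, so their windows cover 1 of several possible promoters.

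Fos, which forms more stable pairs with Jun than Jun forms with itself, had the largest difference of the 7 and the widest spread. Fos (ENSMUSG00000021250, GRCm38 chromosome 12, 85473890 to 85477273) was at 27.8, 41.9 and 113 CPM in SF1 (replicates 1, 2 and 3 in turn, as throughout) and at 9.46 and 9.79 CPM in WT. All SF1 libraries lay above both WT libraries, and SF1 replicate 3 lay far above the other SF1 libraries. The means were 61.0 ± 45.9 CPM (SD, n = 3) and 9.63 ± 0.236 CPM (n = 2), 6.37-fold higher in SF1 (log2 fold change 2.67, SE 0.55, edgeR adjusted p = 0.0124). Relative to the WT mean, the SF1 libraries stood at 2.88, 4.36 and 11.8 times. Dropping SF1 replicate 3 gave a log2 fold change of 1.86 (adjusted p = 0.00444). Dropping WT replicate 1, which leaves 1 WT library, gave 2.64, and the call was not kept.

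Fosb, a close relative of Fos that is also induced by stimuli, was at low levels in both groups. Fosb (ENSMUSG00000003545, chromosome 7, 19302696 to 19310051) was at 3.51, 4.73 and 4.87 CPM across SF1 and 1.36 and 1.82 CPM across WT, from 33, 54, 53, 27 and 16 counts. The groups did not overlap, and the SF1 libraries were within 1.39-fold of each other. It rose 2.82-fold (log2 fold change 1.49, SE 0.34, edgeR adjusted p = 0.0181). The edgeR adjusted p was 0.0599 after dropping SF1 replicate 2 and 0.0564 after dropping SF1 replicate 3. The log2 fold changes were then 1.44 and 1.41. Calls over all genes also fell in these fits, from 977 higher to 464 and 467. Dropping WT replicate 1, which leaves 1 WT library, gave a log2 fold change of 1.26, and the call was not kept. Over all 13 alternatives the log2 fold change ran from 1.26 to 1.70.

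Fosl2, which encodes Fra-2, did not pass, though its SF1 values lay above its WT values. Fosl2 (ENSMUSG00000029135, chromosome 5, 32135801 to 32157842) was at 5.85, 4.73 and 6.71 CPM in SF1 and 3.92 and 4.33 CPM in WT. Its log2 fold change was 0.49 (SE 0.26, adjusted p = 0.239), and 2 SE either side spanned -0.04 to 1.01.

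Junb, a Jun protein that is induced by cytokines and often restrains Jun, was called in every alternative tried. Junb (ENSMUSG00000052837, chromosome 8, 84974484 to 84978718) was at 93.2, 88.9 and 140 CPM across SF1 and 53.8 and 50.8 CPM across WT. The groups did not overlap, and SF1 replicate 3 was again the highest. SF1 averaged 107 ± 28.3 CPM (SD, n = 3) against 52.3 ± 2.16 CPM (n = 2), 2.05-fold higher (log2 fold change 1.03, SE 0.19, adjusted p = 0.00712). Without SF1 replicate 3 the log2 fold change was 0.80 (adjusted p = 0.00680). The gene shares 173 of its 2301 exon bases with Prdx2 on the other strand, which was at 314, 323 and 315 CPM in SF1 and 285 and 282 CPM in WT (log2 fold change 0.16, adjusted p = 0.156).

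Jun, the Jun gene with the highest CPM, and Jund, the steadily expressed one, overlapped between the groups. Jun (ENSMUSG00000052684, chromosome 4, 95049034 to 95052222) was at 181, 135 and 210 CPM in SF1 and 202 and 214 CPM in WT. Its log2 fold change was -0.25 (SE 0.15, adjusted p = 0.309), with 2 SE either side spanning -0.56 to 0.06. Jund (ENSMUSG00000071076, chromosome 8, 70698949 to 70700616) was at 55.3, 38.9 and 66.6 CPM in SF1 and 60.8 and 55.3 CPM in WT. Its log2 fold change was -0.12 (SE 0.19, adjusted p = 0.719), with 2 SE spanning -0.50 to 0.27. SF1 replicate 2 was the lowest library for both genes, and without it the log2 fold changes were -0.09 for Jun and 0.07 for Jund. Of the 1668 exon bases of Jund, 877 are shared with the antisense gene Gm11175, and Jun shares 232 of 3189 with the antisense gene Junos. Reads of these pairs cannot be told apart, since the library chemistry does not mark the strand.

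**Figure D2:**
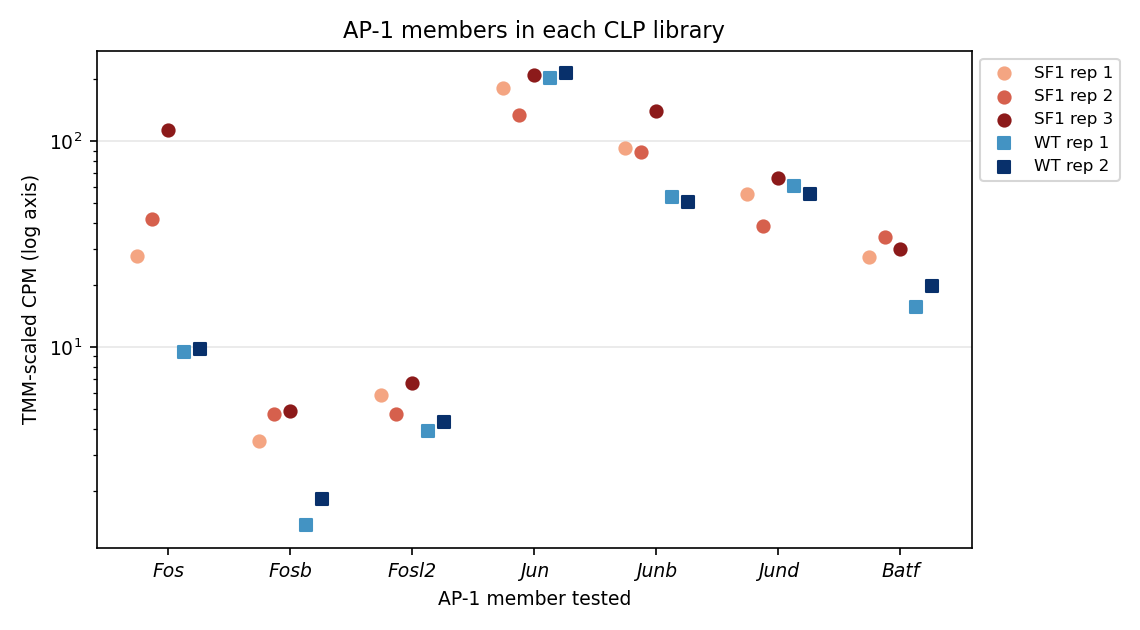
TMM-scaled CPM (log axis) of the 7 tested members in each library, circles for SF1 and squares for WT, colours for replicates. Fos, Fosb, Fosl2, Junb and Batf have all circles above both squares, and in Fos SF1 replicate 3 (113 CPM) stands apart from 27.8 and 41.9 CPM.

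Batf rose and its dendritic cell relative Batf3 was near 0. Batf (ENSMUSG00000034266, chromosome 12, 85686669 to 85709087), which pairs with Jun proteins in lymphocytes, was at 27.4, 34.1 and 29.8 CPM across SF1 and 15.6 and 19.9 CPM across WT. The groups did not overlap, and here SF1 replicate 2, not 3, was the highest. SF1 averaged 30.4 ± 3.36 CPM (SD, n = 3) against 17.8 ± 3.06 CPM (n = 2), 1.73-fold higher (log2 fold change 0.79, SE 0.16, adjusted p = 0.0116). Dropping WT replicate 1, which leaves 1 WT library, gave a log2 fold change of 0.61, and the call was not kept. Batf3, needed for cross-presenting dendritic cells, had 0, 1 and 0 counts in SF1 and 1 and 2 in WT. Atf3, a stress-induced factor, had 0, 0 and 1 counts in SF1 and 0 and 1 in WT. Both were under the filter and at or under the floor of 3 counts per group, so no fold is given, and any difference was not detectable at this depth.

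The spread among the SF1 libraries was wide for Fos and ordinary for Batf. The highest SF1 library exceeded the lowest 4.09-fold for Fos, a larger ratio than in 97.7% of all genes tested. The same ratio was 1.71 for Jund, 1.57 for Junb, 1.55 for Jun, 1.42 for Fosl2, 1.39 for Fosb and 1.24 for Batf, against a median of 1.22 over all genes. Between the WT libraries the ratio was 1.04 for Fos, 1.06 for Junb and Jun, and 1.34 for Fosb, against a median of 1.13. SF1 has 3 libraries and WT has 2, so the ratios of the groups are not set against each other. SF1 replicate 3 was the highest of the 5 libraries in 5 of the 7 members (Fos, Fosb, Fosl2, Junb and Jund), and in 21.4% of all genes tested.

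Per length, the Jun genes made up most AP-1 RNA in both groups, and the Fos class held a larger share in each SF1 library than in either WT library. Levels were compared between members as CPM per kb of exon, over all exon bases, also those shared with another gene. For Jund these are 877 of 1668 bases, and how reads on shared bases were assigned is not stated. The place of Jund in the order below, and the class shares, are uncertain for that reason. In WT the order was Jun (65.2), Jund (34.8), Junb (22.7), Batf (12.6), Fos (4.09), Fosl2 (0.426) and Fosb (0.255), and among these no neighbours overlapped over the 2 libraries. In SF1 the order was Jun (55.0), Junb (46.6), Jund (32.1), Fos (26.0), Batf (21.6), Fosb (0.700) and Fosl2 (0.595). The ranges of each neighbouring pair overlapped over the 3 libraries except Batf and Fosb. Within each SF1 library, though, Jun lay above Junb and Junb above Jund. The order of Jund and Fos, of Fos and Batf, and of Fosb and Fosl2 differed between SF1 libraries. Fos, Fosb and Fosl2 together were 7.96%, 12.9% and 20.9% of the summed level of the 9 across SF1 and 3.34% and 3.46% across WT. The Jun class was 80.1%, 70.6% and 70.1% in SF1 and 88.6% and 86.4% in WT. For every unit of Jun there was 0.208, 0.421 and 0.734 of Fos in the SF1 libraries and 0.0635 and 0.0620 in the WT libraries. Junb per Jun was 0.714, 0.911 and 0.925 in SF1 and 0.370 and 0.329 in WT. These shares and ratios are descriptions without a test.

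**Figure D3:**
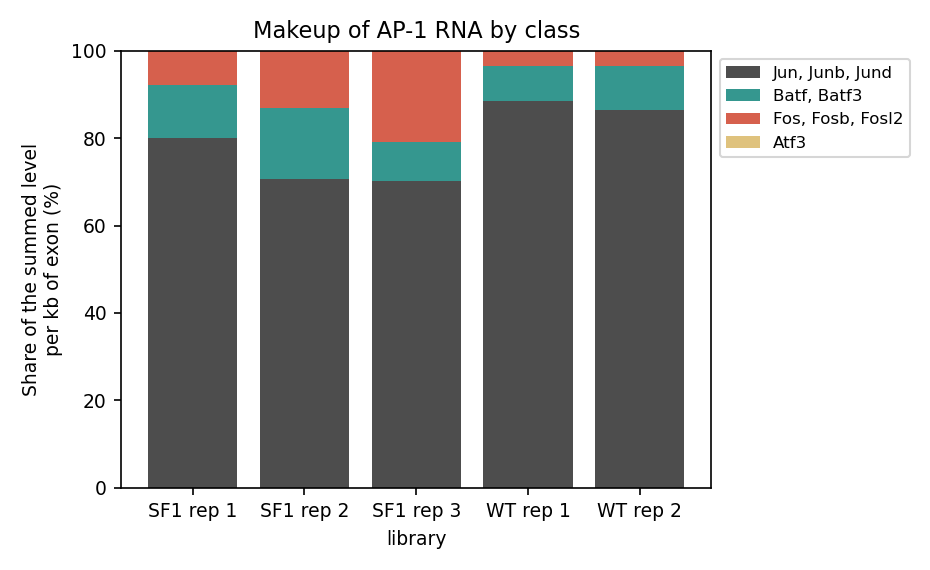
Share of the summed level per kb of exon of the 9 members (vertical axis, percent) held by the Jun, Batf, Fos and Atf classes in each library. The Fos class is at 3.34% and 3.46% in the WT libraries and between 7.96% and 20.9% in the SF1 libraries, and Atf3 is too low to be seen.

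Markers of several other cell types differed between the groups, and the neutrophil and monocyte list was 1 of several with the same highest library as Fos. The summed level of the 18 neutrophil and monocyte markers was 2504, 3158 and 6426 CPM across SF1 and 1149.6 and 1466 CPM across WT, and no marker was at 0 in any library. Counts of calls in the marker lists of this paragraph are read beside the 6.77% higher and 9.74% lower of all genes tested. Of the 18 neutrophil and monocyte markers, 16 were called higher and 0 lower. Among the higher ones the calprotectin gene S100a8 was at 217, 301 and 818 CPM in SF1 and 19.6 and 22.3 CPM in WT. Mpo, the myeloperoxidase gene, and Csf3r, a cytokine receptor gene, did not pass. Mpo was at 774, 809 and 990 CPM in SF1 and 779 and 988 CPM in WT. It made up most of the summed level in WT, so the sum rose less than many called markers, S100a8 among them. Of the myeloid surface genes that the sort removes, Itgam (CD11b) was at 12.3, 21.0 and 21.9 CPM in SF1 and 7.65 and 7.74 CPM in WT, and the neutrophil gene Ly6g at 0.532, 1.93 and 6.43 CPM in SF1 and 0.151 and 0.114 CPM in WT. Relative to the WT mean the summed neutrophil and monocyte level stood at 1.91, 2.41 and 4.91 times in the SF1 libraries, the same order of libraries as Fos and Fosb. For Fosb, SF1 replicates 2 and 3 were close, at 4.73 and 4.87 CPM (54 and 53 counts). The dendritic sum (1.28, 1.36 and 1.5 times) and the megakaryocyte sum (6.59, 8.58 and 17.1 CPM) had this SF1 order too. So did the macrophage sum given below, and no other marker list did. Most of the dendritic sum was the sort gene Flt3 (1594, 1636 and 1700 CPM in SF1) and Irf8, and both had this order. The dendritic marker Siglech (209, 312 and 297 CPM in SF1) did not. Most of the macrophage sum in SF1 was Cd68 (22.1, 29.9 and 34.7 CPM), the macrophage marker called higher. Junb, with 1.78, 1.70 and 2.67 times, shared the highest library only, and Batf, with 1.54, 1.92 and 1.68 times, did not share it. The 15 dendritic markers summed to 3824, 4065 and 4475 CPM in SF1 and 2836 and 3146 CPM in WT, 6 of 14 tested were called higher, and Cd209a was at 0 in SF1 replicate 2 and WT replicate 2. Not all myeloid markers were higher: of 10 macrophage markers 6 were lower, 1 was higher and 3 did not pass, and their summed level overlapped between the groups at 33.3, 38.6 and 57.0 CPM in SF1 and 45.6 and 56.1 CPM in WT. Of 9 erythroid markers tested 7 were lower, with sums of 82.4, 77.1 and 102 CPM in SF1 and 212 and 183 CPM in WT. Among plasma and mature B cell markers 3 of 8 tested were higher and 2 lower. The immunoglobulin genes Igkc (185, 136 and 168 CPM in SF1, 0.604 and 0.342 CPM in WT) and Igha (268, 145 and 266 CPM in SF1, 0.503 and 0.911 CPM in WT) were among the higher ones. The part of any of these cell types in the AP-1 differences was not tested. In bulk RNA, more cells of a type and more RNA per cell cannot be told apart.

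**Figure D4:**
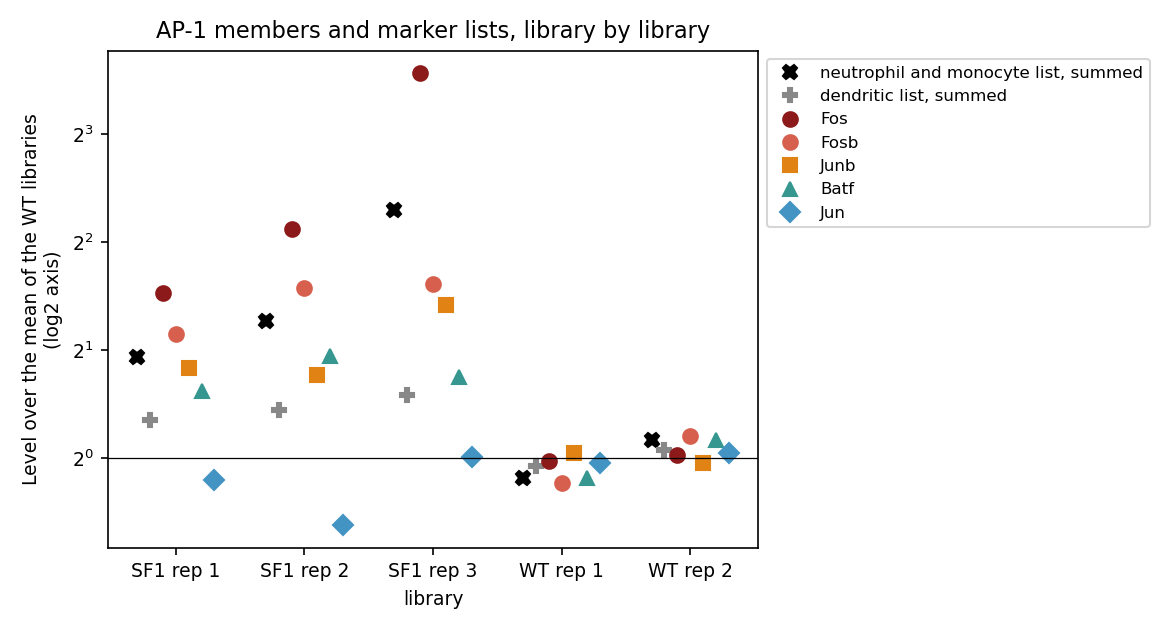
Level in each library over the mean of the 2 WT libraries (log2 axis) for Fos, Fosb, Junb, Batf, Jun and the summed neutrophil and dendritic marker lists. In SF1 replicate 3 Fos stands at 11.8 and the neutrophil list at 4.91 times the WT mean, while Jun is at 1.01. Most of the neutrophil sum in WT is Mpo, which did not pass, so single called markers can stand higher than the sum. S100a8 was at 818 CPM in SF1 replicate 3 and at 19.6 and 22.3 CPM in WT.

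The genes with profiles most like each called member differed between Fos, Junb, Batf and Fosb. Likeness was the root mean square (RMS) difference of gene-centred log2 (CPM + 1) over the 5 libraries, searched in 9709 protein-coding genes with a mean of at least 5 CPM. Closest to Fos were Mtus1 (RMS 0.19), Mcemp1 (0.21), a mast cell and neutrophil membrane protein gene, and Pglyrp1 (0.23), a neutrophil granule protein gene. Mcemp1 was at 4.89, 5.78 and 15.3 CPM in SF1 and 0.403 and 0.569 CPM in WT. Closest to Junb were Fcgrt (0.10), the neonatal Fc receptor gene, Prr13 (0.11) and the urokinase receptor gene Plaur (0.13). Closest to Batf were Ing4 (0.05), Marf1 (0.06) and Ago1 (0.06), and closest to Fosb were the lymphocyte surface gene Cd5 (0.05), Inafm2 (0.07) and the oxygen sensor gene Egln1 (0.07). The search used the same 5 libraries as the test, so this is a description only. Adding 1 before the log shrinks the differences of genes with few CPM, so the closest genes depend partly on level. Fosb itself lay under the 5 CPM minimum.

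Other immediate early genes went both ways, with more higher than lower. Of 36 tested of 40, 8 were higher and 2 lower, while 26 did not pass (all genes tested: 6.77% higher and 9.74% lower). The median log2 fold change was 0.12. Ier5l was at 2.66, 2.80 and 2.39 CPM in SF1 and 0.453 and 0.228 CPM in WT, 6.87-fold higher in SF1 (log2 fold change 2.78, SE 0.47, edgeR adjusted p = 0.00536). That fold rests on 9 and 2 WT counts, and its log2 value was 3.45 after dropping WT replicate 1. Klf6, a zinc finger factor, rose 1.63-fold (adjusted p = 0.00578) and Ier3, a survival and stress gene, 2.92-fold (adjusted p = 0.0136, but 0.0562 after dropping SF1 replicate 2 and 0.0826 after dropping WT replicate 1). The growth regulator Myc fell from 786 and 820 CPM in WT to 558, 369 and 387 CPM in SF1 (log2 fold change -0.87, SE 0.16, adjusted p = 0.00663). The other lower gene, named after its value was seen, was Dusp6, a phosphatase that switches off ERK (log2 fold change -1.24, adjusted p = 0.0161). SF1 replicate 3 was the highest library in 15 of the 36 (41.7%), against 21.4% of all genes tested. The number called higher dropped to 4 when SF1 replicate 2 or 3 or WT replicate 2 was left out and to 5 when WT replicate 1 was left out. It was 14 with no filter on low counts. The number called lower was 1 without SF1 replicate 3 or WT replicate 1.

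Upstream of AP-1, Srf, Mrtfa, Mapk7 and Map2k7 were lower and Mapk13 higher. The counts of calls in these lists are small and are read beside the 6.77% higher and 9.74% lower of all genes tested, as are those of the lists that follow. Of 12 serum response and CREB factors, which drive Fos and Jun, 0 were higher, 2 lower and 10 did not pass (median -0.21). Srf, the serum response factor that binds the Fos promoter, was at 16.8, 17.0 and 17.1 CPM in SF1 and 29.1 and 25.5 CPM in WT (log2 fold change -0.69, adjusted p = 0.00941; 0.095 without WT replicate 1). Mrtfa, its coactivator, was 1.61-fold lower (adjusted p = 0.00465). Of 18 MAP kinase genes tested of 19, 1 was higher, 2 lower and 15 did not pass (median -0.07). Mapk13, a p38 kinase gene, was at 2.66, 3.24 and 5.15 CPM in SF1 and 0.604 and 0.114 CPM in WT (log2 fold change 3.08, adjusted p = 0.00784). WT replicate 2 had 1 count, the log2 fold change was 4.87 after dropping WT replicate 1, and the gene was not among the genes tested under the stricter filter on low counts. Mapk7, which encodes ERK5, was 1.52-fold lower (adjusted p = 0.00689; 0.0645 without WT replicate 1). Map2k7, which activates the Jun kinases, was 1.51-fold lower (adjusted p = 0.0169; 0.0514 without SF1 replicate 2, 0.0561 without SF1 replicate 3 and 0.0958 without WT replicate 1).

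Of the partners and the factors that remove AP-1, Mafk fell and Cop1 rose. Of 8 tested of 10 other partner genes, 0 were higher, 1 lower and 7 did not pass (median 0.19). Mafk, a small Maf factor, was at 79.4, 70.1 and 89.2 CPM in SF1 and 149 and 142 CPM in WT, 1.83-fold lower in SF1 (SE 0.11 on the log2 scale, adjusted p = 0.00137). Of 9 ligase and RNA decay genes, 1 was higher, 2 lower and 6 did not pass (median -0.24). Cop1, part of a ubiquitin ligase that removes Jun, was at 57.4, 73.8 and 64.1 CPM in SF1 and 24.6 and 19.6 CPM in WT, 2.92-fold higher in SF1 (SE 0.15 on the log2 scale, adjusted p = 0.000559). Cnot1, the scaffold of the deadenylase complex, was 1.46-fold lower (adjusted p = 0.0145), with 0.0554 after dropping SF1 replicate 3 and 0.114 after dropping WT replicate 1. Zfp36l2, an RNA decay factor, was 1.35-fold lower, close to the threshold (adjusted p = 0.0472). Dropping SF1 replicates 1 or 2 or WT replicates 1 or 2 gave 0.0834, 0.0828, 0.192 and 0.0876.

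Textbook AP-1 targets and BATF partners were called higher in part. Of 15 targets tested of 20, 4 were higher, 1 lower and 10 did not pass (median 0.36). The gelatinase gene Mmp9, which is also a neutrophil granule product, was at 8.40, 13.5 and 50.6 CPM in SF1 and 0.453 and 1.02 CPM in WT, 36.9-fold higher in SF1 (log2 fold change 5.21, SE 0.94, edgeR adjusted p = 0.00713). Dropping SF1 replicate 3 gave a log2 fold change of 4.05 and dropping WT replicate 1 gave 4.55 with the call ended (adjusted p = 0.0721), as it was with limma voom (0.0646). The chemokine gene Ccl3 rose 3.17-fold (adjusted p = 0.00485). The adhesion gene Cd44 rose 1.28-fold (adjusted p = 0.0313; 0.0993, 0.101 and 0.212 without SF1 replicate 2, SF1 replicate 3 and WT replicate 1). Plaur rose 2.32-fold (adjusted p = 0.0377), but dropping SF1 replicates 2 or 3 or WT replicates 1 or 2 gave 0.0659, 0.0763, 0.140 and 0.118. The lower gene, named after its value was seen, was the heme oxygenase gene Hmox1, which is also among the macrophage markers (log2 fold change -1.57, adjusted p = 0.0464). No target was called lower with DESeq2, the stricter filter on low counts or thinned counts, or after dropping SF1 replicate 2, WT replicate 1 or WT replicate 2. Of 9 BATF partner genes tested of 10, 2 were higher and 7 did not pass (median 0.24). Irf8, the dendritic and monocyte factor that pairs with BATF and is also among the dendritic markers, was at 1039, 1117 and 1318.5 CPM in SF1 and 575 and 663 CPM in WT, 1.87-fold higher in SF1 (SE 0.11 on the log2 scale, adjusted p = 0.00140). Ikzf2, which encodes Helios, rose 2.10-fold (adjusted p = 0.00800; 0.0696 without WT replicate 1). Irf4, the other partner, named after its values were seen, was at 12.2, 10.9 and 5.88 CPM in SF1 and 16.3 and 13.8 CPM in WT (adjusted p = 0.151).

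**Figure D5:**
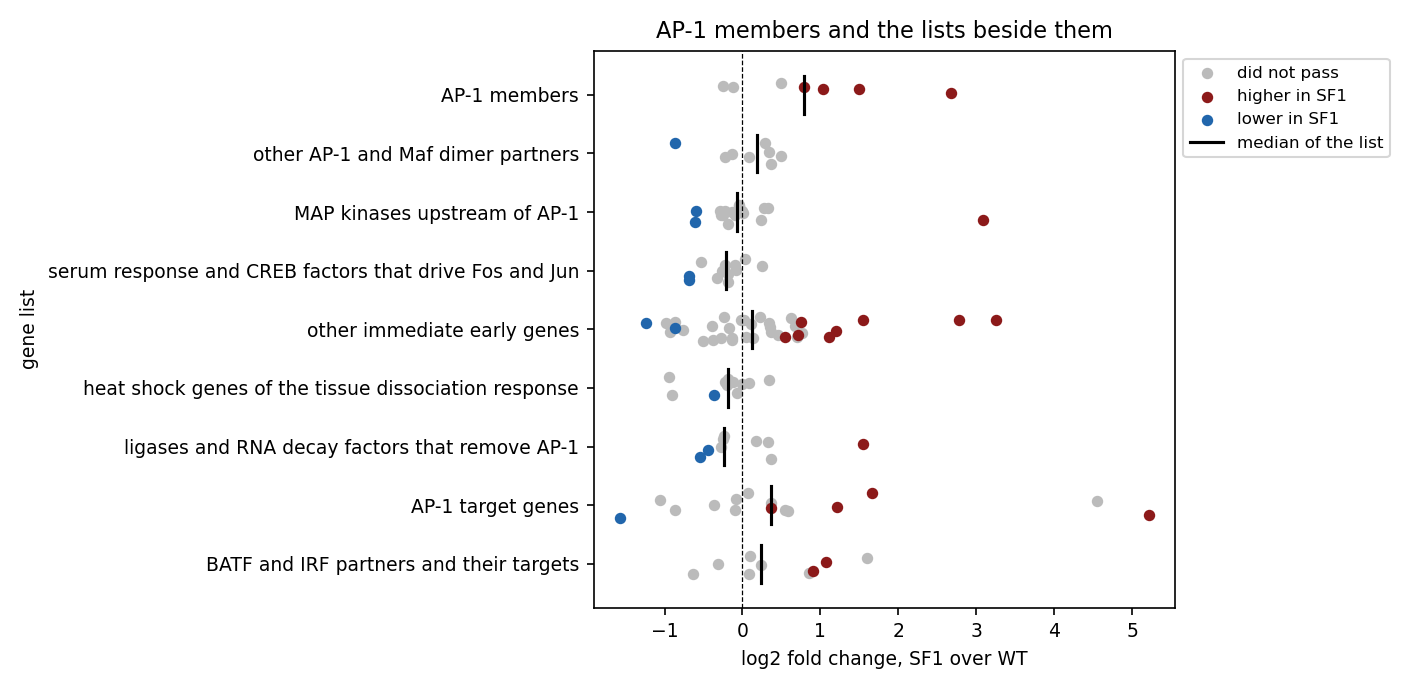
Log2 fold change (SF1 over WT) of each tested gene of the AP-1 list and of the 8 lists beside it, red for higher, blue for lower, grey for not passing, with the list median as a bar. The AP-1 median lies at 0.79, and the other list medians lie between -0.24 and 0.36.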

How the data were processed

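RNA of sorted CLPs (RIN above 7) was amplified with SMART-Seq version 2 or 4, which marks neither strand nor molecule, and sequenced from Nextera XT libraries, per the labels' protocols. Which libraries had which version is not stated, so a difference in version between the groups cannot be told apart from genotype. The authors deposited raw counts per gene for 5 libraries. The submitters' processing notes name GRCm38, the aligner HISAT2 2.2.1, the counter featureCounts 2.0.1 and FastQC. Annotation release and strand setting: not given in the sources used here. GENCODE M21 gave symbols to 55227 of 55487 identifiers.

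SF1 was tested against WT with edgeR 4.0.16 (R 4.3.3): TMM scaling, filterByExpr (minimum count 10), quasi-likelihood F test, Benjamini-Hochberg adjustment over all genes, threshold 0.05. Each SE was derived from the F statistic. No library repeated another (chi-square per degree of freedom 6.38 to 8.81 within groups). 1 count stood for 0.0503 to 0.114 CPM. The fit was tested on simulated data.

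Named were the 9 members, up to 4 called genes of each of 8 lists by smallest p, and the 3 genes most like each called member. The members, lists and rules were chosen with earlier results of these data known. Lists were described by counts and medians, without a test of their own. The 13 alternatives were DESeq2 1.42.0, RLE scaling, 2 other filters, 5 libraries left out in turn, the replicate number as a block, thinning to the smallest total, limma 3.58.1 voom with sample weights, and GC and length correction. Leaving out a WT library leaves 1 in that group, so these fits have no WT spread and a lost call may reflect fewer libraries. Some genes of the lineages that the sort removes are not reported here.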

Additional observations from a re-analysis of the deposited data

How the results depend on the processing

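The 4 called members kept their direction in all 13 alternatives, and Junb was past the threshold in all 13. Fos and Batf were past it in 12 each and Fosb in 9. The number of members called higher ranged from 1 to 4 when single libraries were left out, with 1 without WT replicate 1, and none was called lower in any alternative. The log2 fold change of Jund ranged from -0.31 without SF1 replicate 3 to 0.07 without SF1 replicate 2, where it changed sign, when single libraries were left out. Over all genes, the number called higher ranged from 464 to 905 and the number lower from 522 to 1265 when single libraries were left out, against 977 and 1405. Of the other immediate early genes, between 4 and 9 were higher and between 1 and 2 lower when single libraries were left out, and 14 were higher with no filter on low counts.

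With the replicate number as a block, 574 genes were higher and 945 lower, 3 members were called (Fos, Junb and Batf), and 4 immediate early genes were higher. The log2 fold change of Fos was then 1.81 (adjusted p = 0.000825), that of Mmp9 3.95 (adjusted p = 0.000218) and that of Fosb 1.37 (adjusted p = 0.0520). The block leaves SF1 replicate 3 without a partner. The fold changes then rest on the other libraries, as when it is dropped, where that of Fos was 1.86 on the log2 scale. Libraries with the same number share only that number: the correlation of their deviations from the group means was 0.0317 for replicate 1 and 0.0630 for replicate 2. In the other 7 lists, 140 of 182 counts of calls stayed within 1.5 times of the reported count, and 26 of the 42 that moved went to a lower number. In SF1 the Batf class share of AP-1 RNA was 12.4% per kb of exon and 7.33% without division by length. Batf has the fewest exon bases of the 9 (1406, against 3189 for Jun), so dividing by length raises its share. The cause of the other shifts was not tested. At these depths Atf3 and Batf3 cannot be compared.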

Other observations

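Heat shock genes, a list of those known to be induced when tissue is dissociated, were also examined. Of 11 tested of 12, 0 were higher, 1 lower and 10 did not pass, where 6.77% of all genes tested were higher and 9.74% lower. The median log2 fold change of the 11 was -0.18. The lower gene was Hspd1, a mitochondrial chaperone gene (log2 fold change -0.37, adjusted p = 0.0229), and dropping SF1 replicates 2 or 3 or WT replicates 1 or 2 gave adjusted p = 0.0791, 0.0776, 0.0515 and 0.0968. Hspa1b, an inducible chaperone gene named after its values were seen, was at 14.1, 9.98 and 40.2 CPM in SF1 and 16.5 and 66.7 CPM in WT, highest in WT replicate 2. Its near-identical copy Hspa1a was at 4.15, 3.15 and 14.7 CPM in SF1 and 4.88 and 24.5 CPM in WT, and the 2 genes can share reads. Of the 11 genes, 1 was highest in SF1 replicate 3 (9.09%), against 21.4% of all genes tested. The part of tissue dissociation in the AP-1 differences was not tested.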
